A study of Arabidopsis thaliana with 12 samples.

Results

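GH3.5 (AT4G27260, RefSeq symbol WES1), ARL (AT2G44080) and ARR15 (AT1G74890) are 3 Arabidopsis genes of the growth hormone pathways, 1 each for auxin conjugation, organ growth and the cytokinin response. Each was found by its annotation as the single gene of a probe set, and each had 1 probe set, so they make up 3 of the 22810 probe sets in the table. The genes were selected on their measured levels in the 4 treatment groups. Those levels, and every difference between them, are therefore given as a description and carry no test.

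All arrays measured RNA of T87 cells, a suspension culture of the Columbia background that keeps dividing in liquid medium. Every culture, controls included, grew with 0.5 µM 1-naphthaleneacetic acid (NAA), a synthetic auxin, and was sampled at an age of 5 days after 20 h of treatment. One group received 50 µM abscisic acid (ABA), a stress hormone, together with 5 mM dimethylthiourea (DMTU), which the study used to scavenge hydrogen peroxide. The others received 50 µM ABA alone, 5 mM DMTU with ethanol, or ethanol alone as the control. There were 3 arrays a group. Nothing in the labels tells whether these were separate cultures, so their spread may be technical. T87 is 1 cell line, and a change in the share of a cell type cannot be told apart from a change of RNA per cell.

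Auxin controls cell division and expansion, and plants lower the active pool by coupling it to amino acids. GH3 enzymes make these conjugates. GH3.5 acts on indole-3-acetic acid and also on salicylic acid. ARL, short for ARGOS-like, is a small membrane protein that promotes organ growth through cell expansion. ARR15 is a type-A response regulator. Such genes are switched on by cytokinin through a phosphorelay, and their proteins dampen the same relay. ABA is known as a hormone that restrains growth.

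Before the members' values, several properties of the arrays bear on them. In the ABA and control groups replicate 1 stood apart. Over all probe sets, the SD of its log2 difference from another array of its group was 0.465 to 0.505 in ABA and 0.550 to 0.565 in control arrays, while replicates 2 and 3 differed with an SD of 0.174 in ABA and 0.168 in control arrays. To a lesser degree this held for ABA+DMTU replicate 1, with 0.40 to 0.41 against 0.24 between replicates 2 and 3. It also held for DMTU replicate 3, with 0.32 to 0.35 against 0.21 between replicates 1 and 2. Spike-in RNA, which does not come from the cells, was higher in the arrays with DMTU, with bioB at 8.04 ± 0.41 in ABA+DMTU, 7.32 ± 0.45 in ABA, 8.04 ± 0.07 in DMTU and 7.12 ± 0.24 in control arrays (log2, SD, n = 3). The log2 excess of the ubiquitin 3' probe set over the 5' one, a sign of RNA quality, was 1.1 ± 0.07 in ABA+DMTU, 0.67 ± 0.04 in ABA, 1.36 ± 0.06 in DMTU arrays and 0.92 ± 0.07 in controls (n = 3 each, with SDs). The mean log2 level of 5 measured markers of dividing cells, among them AUR1 and PRL, lay between 4.44 and 4.74 in ABA+DMTU, 4.12 and 4.88 in ABA, 8.41 and 8.68 in DMTU, and 7.16 and 7.88 in control arrays. Markers of guard cells (2 measured), root hairs (2) and trichomes (1) had array means of 3.33 to 4.28, near the arrays' lower quartiles of 3.84 to 3.98. The xylem marker VND6 lay at 4.28 to 5.55. The photosynthesis gene PSAN, whose level averaged 8.80 in ABA+DMTU, 9.79 in ABA, 6.94 in DMTU and 9.55 in control arrays, was the measured mesophyll marker. No phloem marker had a named probe set. The arrays with DMTU carry a separate run of sample numbers from those without it, and no label says whether they were processed together. A difference between groups with and without DMTU therefore cannot be told apart from a difference between these sets of arrays. The part of these shifts in the results below was not tested.

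GH3.5 was much higher with ABA, whether or not DMTU was present, and lower with DMTU. Its log2 level was 10.6, 9.75 and 9.88 in ABA replicates 1, 2 and 3, against 6.16, 5.93 and 6.11 in the control replicates. The nearest arrays of these groups were 3.6 apart, and the ABA replicate that stood highest was number 1. The means were 10.08 ± 0.46 with ABA and 6.06 ± 0.12 in control arrays (SD, n = 3), a log2 difference of 4.01 ± 0.21 (SE from the limma fit), or 16.1-fold. It was the 153rd largest of 22746 differences. Higher levels in every ABA array than in every control array were found for 20.7% of all probe sets, and 15.5% passed the test in that direction (limma, Benjamini-Hochberg adjusted p under 0.05), out of 35.2% in either direction. Such shares are the background for the members. With arrays centred on their medians, 5036 probe sets were called higher and 3522 lower with ABA, against 3518 and 4496 as deposited.

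With DMTU present the response of GH3.5 to ABA was larger on the log2 scale. Its log2 level was 9.23, 9.32 and 9.41 in the ABA+DMTU arrays, against 4.44, 4.17 and 4.75 in the DMTU arrays. The difference was 4.86 ± 0.21 (SE), or 29.1-fold, and ranked 55th among all probe sets. No arrays overlapped, as for 26.3% of all probe sets in the same direction, and 18.8% passed the test (4274 higher and 4682 lower, or 6753 and 3765 with arrays centred). The 2 ABA effects differed by 0.85 ± 0.29 (interaction, ABA effect with DMTU minus that without it), and this value was 1.11 without ABA replicate 1. For comparison, 2.8% of all probe sets passed the interaction test, 1.16% with a positive and 1.65% with a negative value.

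The larger response came with a lower starting level, not a higher end level. DMTU arrays averaged 4.45 ± 0.29 and control arrays 6.06 ± 0.12, a difference of -1.61 ± 0.21 (SE), or 3.06-fold lower. All 3 DMTU arrays lay below all 3 control arrays, as for 17.4% of all probe sets, and 8.26% of all probe sets passed the test as lower. In the presence of ABA the step was smaller: ABA+DMTU arrays averaged 9.32 ± 0.09 and ABA arrays 10.08 ± 0.46, a difference of -0.76 ± 0.21. The arrays did not overlap (as for 15.3% of all probe sets, while 6.86% of all passed the test as lower), but the nearest were 0.347 apart, and the difference was -0.50 without ABA replicate 1. The GH3.5 level in DMTU arrays was above the arrays' lower quartile, with its mean at the percentile 35.2 of all probe sets. Whether the low end of the scale limited this level, and so the interaction, was not tested. The order of the groups was thus ABA, ABA+DMTU, control and DMTU, with no overlap between neighbours.

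**Figure D1:**
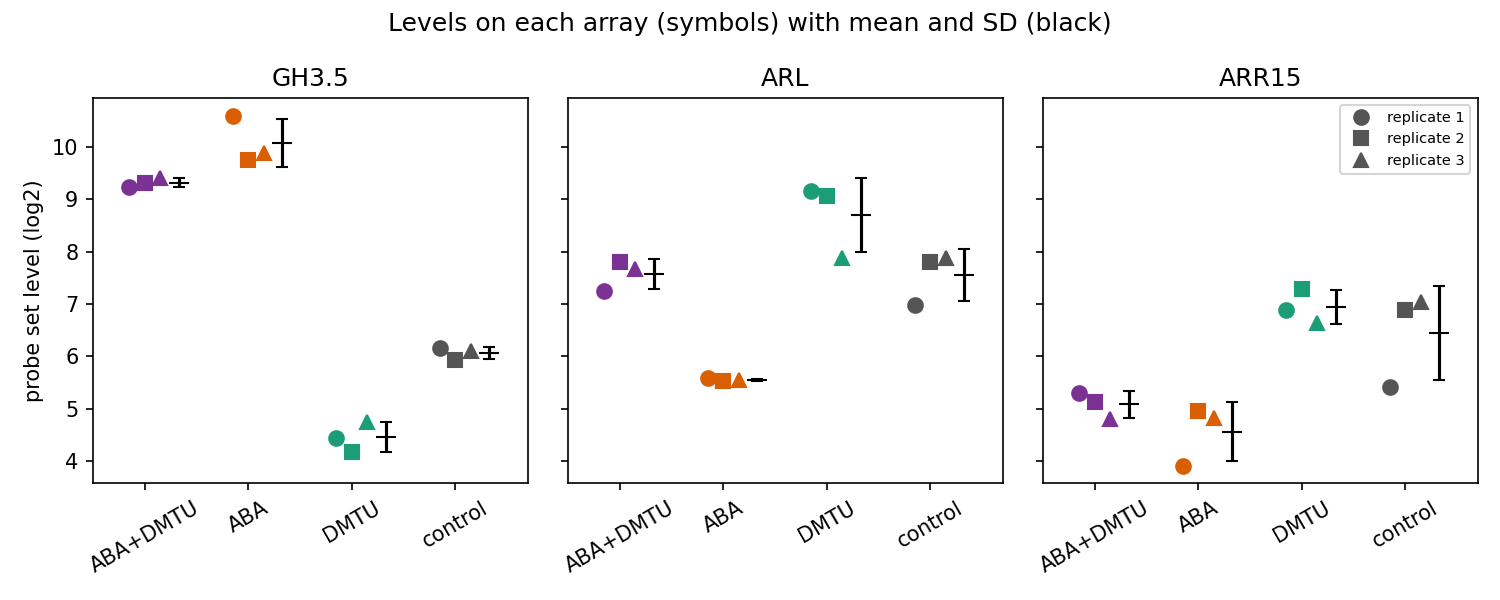
Log2 level of the GH3.5, ARL and ARR15 probe sets (one panel each) on the 12 arrays, with circles, squares and triangles for replicates 1, 2 and 3 and black bars for the mean and SD over 3 arrays. GH3.5 is high in both groups with ABA, ARL is lowest in ABA arrays and highest in DMTU arrays, and ARR15 is low in both groups with ABA.

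ARL went the other way in both treatments, and its levels with both agents together were close to those of control cells. Its log2 level was 5.58, 5.53 and 5.54 in the ABA arrays, against 6.98, 7.80 and 7.88 in the control arrays. The ABA arrays were nearly identical to each other and all lay below the controls. The means were 5.55 ± 0.03 with ABA and 7.55 ± 0.50 in control arrays (SD, n = 3), a log2 difference of -2.0 ± 0.33 (SE), or 4.0-fold lower. In this comparison 23.7% of all probe sets had every ABA array below every control array, and 19.8% passed the test as lower.

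With DMTU present the ABA effect on ARL was smaller. The ABA+DMTU arrays had 7.24, 7.81 and 7.67, against 9.15, 9.07 and 7.88 in the DMTU arrays. DMTU replicate 3 was low and came within 0.0686 of the highest ABA+DMTU array. The difference was -1.13 ± 0.33 (SE), or 2.18-fold lower. Groups that did not overlap in this direction made up 25.2% of all probe sets, and 20.6% passed the test. The interaction was 0.87 ± 0.46, and it ranged from 0.46 without DMTU replicate 3 to 1.16 without control replicate 1, so its size rested on single arrays.

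DMTU itself went with higher ARL. The DMTU mean was 8.70 ± 0.71 and the control mean 7.55 ± 0.50, a difference of 1.15 ± 0.33 (SE), or 2.22-fold. The lowest DMTU array and the highest control array, both numbered 3, were level to within 0.000365. Of all probe sets, 21.3% had every DMTU array above every control array and 9.39% passed the test as higher. Between the groups with ABA the step was clearer: 7.57 ± 0.29 in ABA+DMTU and 5.55 ± 0.03 in ABA arrays, a difference of 2.02 ± 0.33, or 4.07-fold. The nearest arrays were 1.67 apart, and this difference ranked 70th from the top of 22746, where 19.7% of all probe sets did not overlap in this direction and 7.36% of all passed the test as higher. If the effects of ABA and DMTU on ARL had simply added on the log2 scale, the level with both would have been 6.70, and 7.57 was measured. The order was DMTU, ABA+DMTU, control and ABA, and the ABA+DMTU and control arrays overlapped, with a gap of 0.02 between their means against a residual SD of 0.46.

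ARR15 was lower with ABA by about the same amount without and with DMTU. Its log2 level was 3.91, 4.95 and 4.82 in the ABA arrays, against 5.42, 6.88 and 7.03 in the control arrays. Replicate 1 was the lowest array of both groups. The means were 4.56 ± 0.57 with ABA and 6.44 ± 0.89 in control arrays (SD, n = 3), and the log2 difference was -1.88 ± 0.40 (SE), or 3.69-fold lower. Between arrays with the same number the differences of ARR15 were -1.51, -1.93 and -2.21, so that they varied less than its levels did. For ARL they were -1.4, -2.26 and -2.34, more spread than its levels in ABA arrays, and for GH3.5 4.44, 3.82 and 3.77. With the replicate number as a block in a fit of these 6 arrays, chosen after the data were seen, the SE of ARR15 was 0.16. Whether the numbers mark pairs of arrays is not known, beyond replicate 1 standing apart in both groups.

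The ABA+DMTU arrays had ARR15 at 5.30, 5.13 and 4.81, against 6.89, 7.28 and 6.63 in the DMTU arrays. These groups were 1.33 apart at their nearest arrays. The difference was -1.86 ± 0.40 (SE), or 3.62-fold lower, and the interaction was 0.03 ± 0.57. Leaving out single arrays moved the interaction between -0.30 and 0.54, so the arrays do not settle whether the effects differed. The same background shares apply as for ARL.

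No difference of ARR15 with DMTU stood out from the spread. DMTU arrays averaged 6.94 ± 0.33 and control arrays 6.44 ± 0.89, a difference of 0.49 ± 0.40 that became -0.02 without control replicate 1. ABA+DMTU arrays averaged 5.08 ± 0.25 and ABA arrays 4.56 ± 0.57, a difference of 0.52 ± 0.40, or 0.19 without ABA replicate 1. Both pairs of groups overlapped. The order was DMTU, control, ABA+DMTU and ABA, and only control and ABA+DMTU, 1.36 apart in their means, were neighbours that did not overlap.

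**Figure D2:**
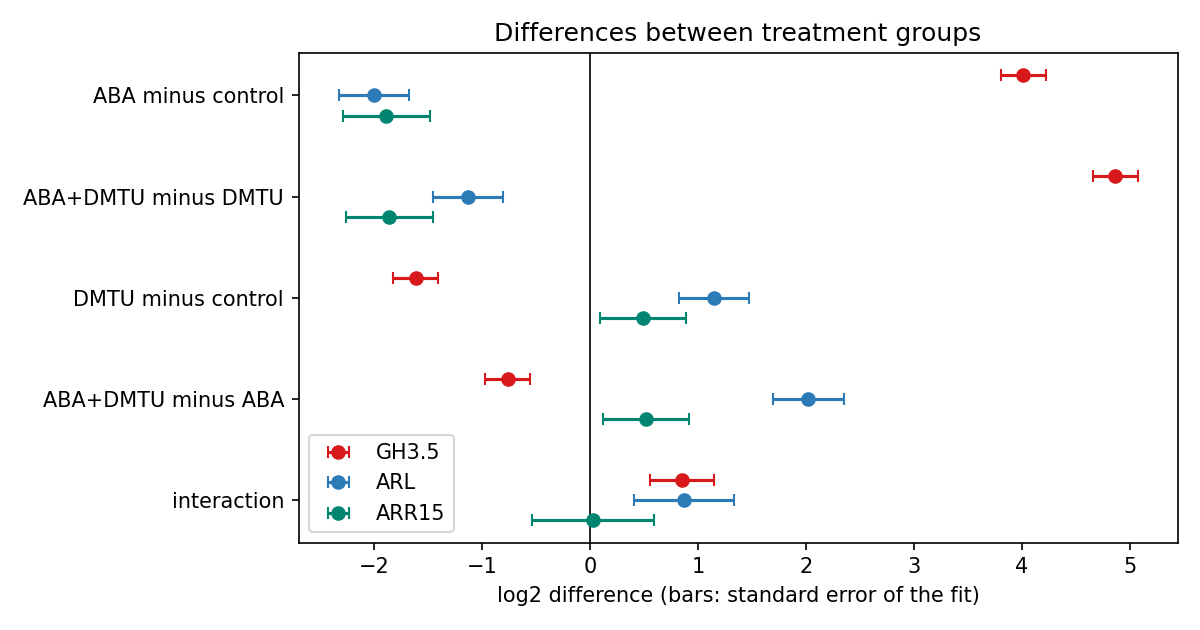
Log2 differences of GH3.5, ARL and ARR15 between treatment groups (horizontal axis), with the standard error of the limma fit as bars. GH3.5 differs from ARL and ARR15 in sign in each of the 4 comparisons of groups. The ARR15 values for DMTU are small against their standard errors (0.49 ± 0.40 and 0.52 ± 0.40), and the arrays overlap, so their sign is uncertain.

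Few other genes of these pathways could be measured. Of 338 genes in 16 lists ordered by role, 27 besides the members had a named probe set, and the auxin receptors and response factors, SAUR genes, cytokinin receptors and cytokinin response factors had none. Of these 27 genes, 4 rose and 1 fell with ABA alone (adjusted p under 0.05, limma), a share of 18.5% against 35.2% of all probe sets, and 6 rose and 1 fell with arrays centred on their medians. With DMTU present 6 rose and 2 fell, or 29.6% against 39.4%, and 10 rose and 1 fell with arrays centred. In DMTU against control 1 rose and 1 fell (0 and 1 with arrays centred), and in ABA+DMTU against ABA 2 rose and 0 fell, each 7.41%, against 17.6% and 14.2% of all probe sets. The list genes' median differences were 0.10, 0.14, 0.06 and 0.11 in these 4 comparisons, against 0.01, 0.03, 0.03 and 0.05 over all probe sets. Of the 27 genes, 12 had a mean level below the lower quartile of all probe sets, where small changes are hard to measure.

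Among the GH3 family, GH3.17 shared the direction of GH3.5 in ABA and in DMTU. GH3.17 couples auxin to glutamate. Its log2 level was 12.69, 12.83 and 12.75 in ABA+DMTU arrays, against 11.43, 11.32 and 11.07 in DMTU arrays. It rose with ABA in the presence of DMTU by 1.49 ± 0.12 (adjusted p = 2.7e-06, limma). The ABA arrays had 12.65, 12.70 and 12.78, against 12.51, 12.19 and 12.26 in control arrays, a rise of 0.39 ± 0.12 (adjusted p = 0.0241). That call was lost without ABA replicate 2 or 3 or control replicate 2 or 3 (adjusted p of 0.0559 to 0.0981), and with the replicate number as a block in the 6 arrays (adjusted p = 0.0582). GH3.17 fell in DMTU against control by 1.05 on the log2 scale, with an SE of 0.12 (adjusted p = 0.000279). The interaction was 1.1 ± 0.17 (adjusted p = 0.00687, limma), and it was the single interaction called among the 27 genes. Unlike GH3.5, its levels with ABA overlapped between ABA+DMTU and ABA arrays, with a difference of 0.05 ± 0.12 (adjusted p = 0.841). The mean of GH3.17 was at the percentile 99.8 of all probe sets in ABA+DMTU, 99.7 in ABA and 99.4 in control arrays, near the top of the scale, and whether that limited its differences was not tested.

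The other GH3 genes were dim. GH3.3, which also conjugates auxin, rose in ABA+DMTU against DMTU by 0.45 ± 0.11 (adjusted p = 0.0049, limma) and in ABA+DMTU against ABA by 0.46 ± 0.11 (adjusted p = 0.0135), at group means of 3.27 to 3.94. GH3.1 had 0.36 ± 0.18 with ABA alone (adjusted p = 0.146), and GH3.9 had -0.09 ± 0.11 (adjusted p = 0.616). Neither was called in another comparison.

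Auxin synthesis and the auxin repressors gave few calls. YUC2, a flavin monooxygenase of auxin synthesis, rose by 0.27 ± 0.09 with ABA alone (adjusted p = 0.0469, limma) and by 0.33 ± 0.09 with DMTU present (adjusted p = 0.0146). The first call was lost without any 1 of the ABA or control arrays (adjusted p of 0.0543 to 0.137) and with the replicate number as a block (adjusted p = 0.0518), and the second without DMTU replicate 2 (adjusted p = 0.0627). YUC4, YUC6, YUC11 and UGT84B1, which glucosylates auxin, were not called in any comparison. Of 7 Aux/IAA genes, whose proteins repress auxin response genes, 0 were called with ABA by limma, and 1, IAA34, had an unadjusted p under 0.05 (0.26 ± 0.10, adjusted p = 0.0615).

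WAG2, a protein kinase that acts on PIN auxin carriers, had the largest log2 rise among the called genes of these lists, from levels at the low end of the scale. It had 7.06, 7.04 and 7.41 in ABA+DMTU arrays, against 3.73, 3.74 and 4.02 in DMTU arrays, a rise of 3.34 ± 0.31 (adjusted p = 7.76e-06, limma). ABA arrays had 4.78, 6.23 and 6.14, against 3.6, 3.88 and 3.73 in control arrays, a rise of 1.98 ± 0.31 (adjusted p = 0.000431). Here ABA replicate 1 was the low array. The mean of WAG2 was at the percentile 22.6 of all probe sets in DMTU arrays and 20.4 in control arrays, below the lower quartile, so the true size of its rises, and of the interaction, is uncertain. WAG2 also rose in ABA+DMTU against ABA by 1.46 ± 0.31 (adjusted p = 0.00963), a call lost in a fit of these 2 groups alone (adjusted p = 0.0519). The interaction was 1.36 ± 0.44 and was not called (adjusted p = 0.148).

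Of the growth regulators, SAMBA, which restrains organ growth through the anaphase-promoting complex, fell in ABA+DMTU against DMTU by 0.45 on the log2 scale, with an SE of 0.11 (adjusted p = 0.00781, limma), and rose in DMTU against control by 0.38 ± 0.11 (adjusted p = 0.0442). Both calls were lost with arrays centred on their medians (adjusted p = 0.0618 and 0.0574). The second was also lost without any 1 of 5 arrays, all the DMTU and control arrays but DMTU replicate 3 (adjusted p of 0.0733 to 0.146). That call was lost as well with the replicate number as a block (adjusted p = 0.0617) and with only the 2 groups compared (adjusted p = 0.0968). JAG and BPEp, regulators of leaf and petal growth, were not called in any comparison. No other ARGOS family gene had a named probe set.

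ARR16, the other measured type-A response regulator, was not called in any comparison, and its difference from ARR15 was not tested. Its log2 level was 4.59, 3.62 and 3.42 in ABA+DMTU arrays, 7.58, 4.66 and 5.21 in ABA arrays, 2.99, 3.54 and 3.42 in DMTU arrays, and 4.59, 4.44 and 4.59 in control arrays. ABA replicate 1 stood far above the rest. With ABA alone the difference was 1.28 ± 0.59 (adjusted p = 0.13, limma), and 0.39 without that array. In ABA+DMTU against ABA it was -1.94 ± 0.59 (adjusted p = 0.0519, limma), and the arrays did not overlap, as for 15.3% of all probe sets in that direction. In DMTU against control it was -1.22 (adjusted p = 0.189, limma), also without overlap, as for 17.4%. The ARR16 mean was at the percentile 4.4 of all probe sets in DMTU and 22.3 in ABA+DMTU arrays, so the true size of these ARR16 differences is uncertain. Under other settings 10 of its values were called, among them ABA+DMTU against ABA with the replicate number as a block (adjusted p = 0.0416). Of the type-B and type-C regulators, ARR22, of type C, rose in ABA+DMTU against DMTU by 0.46 ± 0.11 (adjusted p = 0.00707, limma). ARR18, ARR19 and ARR23 were not called, and all 4 lay below the lower quartile of mean levels.

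A pair of cytokinin-inactivating enzymes moved in opposite directions. UGT76C1 and UGT76C2 attach glucose to cytokinins. UGT76C2 had 6.39, 6.89 and 6.98 in ABA+DMTU arrays, against 9.09, 9.24 and 9.14 in DMTU arrays, a difference of -2.40 ± 0.23 (adjusted p = 1.04e-05, limma). With ABA alone the arrays had 6.56, 7.47 and 7.38, against 8.29, 8.65 and 8.65 in control arrays, a difference of -1.39 ± 0.23 (adjusted p = 0.000658). UGT76C1 rose by 1.12 ± 0.21 with ABA alone (adjusted p = 0.00153) and by 0.61 ± 0.21 with DMTU present (adjusted p = 0.0404). The last call was lost without DMTU replicate 1, 2 or 3 or ABA+DMTU replicate 1 (adjusted p of 0.0597 to 0.156). Neither interaction was called (adjusted p = 0.15 for UGT76C2 and 0.475 for UGT76C1).

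**Figure D3:**
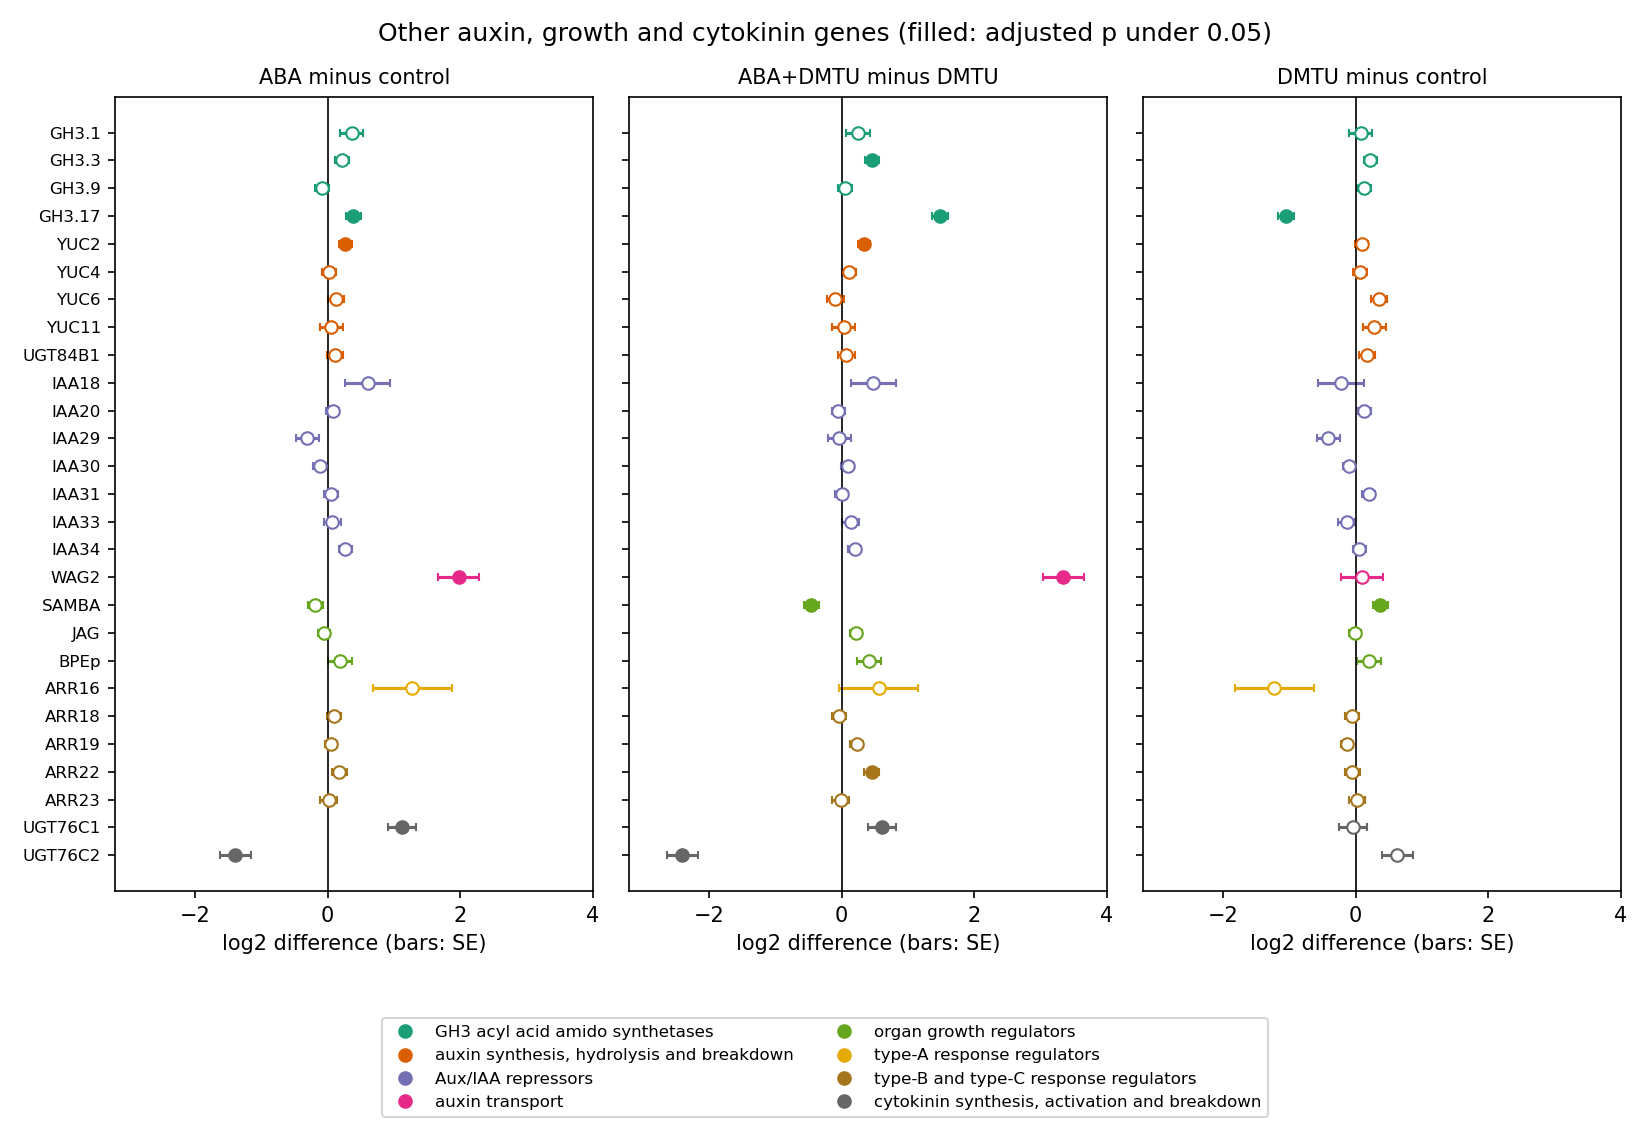
Log2 differences of the 27 other auxin, growth and cytokinin genes in 3 comparisons, with standard errors as bars and colours for the lists; filled points passed the test (adjusted p under 0.05, limma). WAG2 and UGT76C2 lie farthest from 0 with ABA, and GH3.17 is the gene called lower with DMTU.

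The genes whose values over the 12 arrays were nearest to each member were found among 13510 probe sets with 1 gene, by the root mean square (RMS) difference of log2 values after each probe set's own mean was taken away. SFP1, a sugar-transporter-like gene, was nearest to GH3.5, with an RMS difference of 0.345. SFP1 differed by 3.94 with ABA alone, 4.85 with DMTU present and -1.71 in DMTU against control. The next were AT2G26690, AT5G39520, AT1G23040 and AT5G41810 (0.425 to 0.475). AT5G42250 was nearest to ARL (0.240), with -2.0 for ABA alone, -0.76 with DMTU present and 0.90 in DMTU against control, followed by AT4G36500, AT2G28080, AT5G40830 and AT1G52200 (0.293 to 0.398). Nearest to ARR15 were AT4G31810 (0.198), AT5G60670 (0.200), NRPC2, a subunit of RNA polymerase III (0.247), IMP4 of ribosomal RNA processing (0.249) and AT3G07590 (0.259). Their differences were -1.65 to -1.87 with ABA alone, -2.04 to -2.26 with DMTU present and 0.50 to 0.67 in DMTU against control. RMS differences grow with the range of a gene's values, so they are not ranked between members. Pearson r over the 12 arrays was 0.98 to 0.99 for the genes nearest to GH3.5. It was 0.95 to 0.98 for those of ARL and 0.97 to 0.98 for those of ARR15. The points share arrays and treatments, and such likeness is a description of these 12 arrays.

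**Figure D4:**
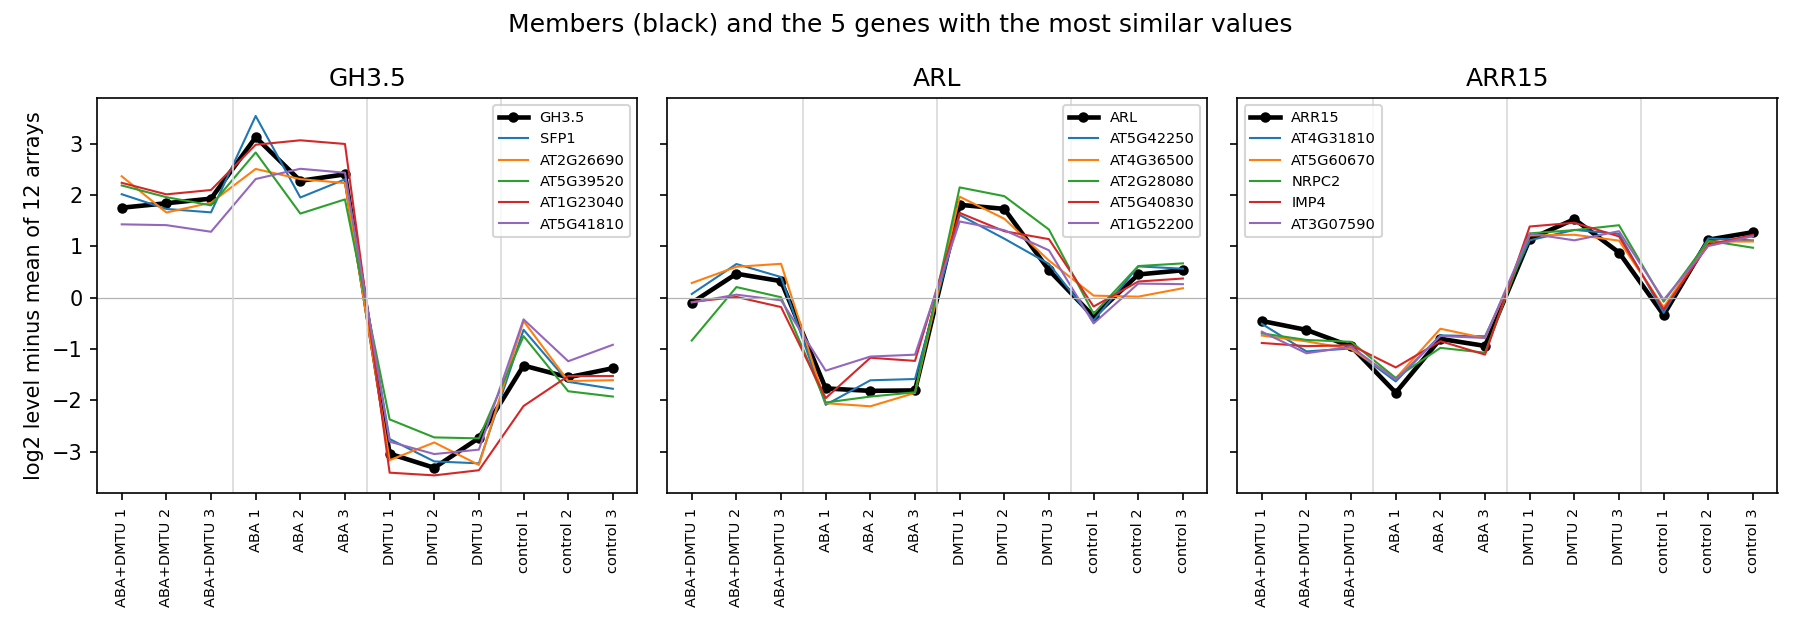
Log2 level minus the mean of the 12 arrays (vertical axis) for each member (black, with points) and its 5 nearest genes (coloured lines) on every array, ordered by group and replicate. ARR15 and its neighbours share low values in replicate 1 of the ABA and control groups.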

How the data were processed

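The deposited values are the authors' log2 probe set values from single-colour Affymetrix arrays. RMA and limma are named, without role or version, per the submitters' processing notes. A 3' kit labelled the RNA with biotin, per the labels' protocols. Whether all arrays were normalized together is not given in the sources used here. Array medians lay between 5.78 and 6.05, and the number of arrays limits the precision. No genome build is named, so no coordinates are given.

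The 64 control probe sets were left out, and 22746 were tested. The platform's annotation named 1 gene for 13513 of them, 13436 matched to the RefSeq gene table of TAIR10.1, several genes for 503, and 8730 are unnamed here. The test was limma's moderated test (version 3.58.1, under R 4.3.3). Its linear model gave every treatment group its own mean, used the 12 arrays together and left 8 residual degrees of freedom. P-values are two-sided and adjusted over all 22746. The fit was tested on simulated data. Tables and plots used Python 3.11.15, pandas 2.3.3 and matplotlib 3.10.9.

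The members and lists were chosen with earlier results of these data known. Members are named whatever their values. The rule for other genes took, per list and comparison, up to 3 rises and 3 falls that passed the test and changed at least 2-fold, lists of 4 or fewer measured genes whole, and the 5 genes nearest to each member. YUC2 and the genes of larger lists named beside it fall outside this rule and were named after their values were seen.

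Deviations from the group means correlated between same-numbered ABA and control arrays at r = 0.52, 0.42 and 0.39 across probe sets for numbers 1, 2 and 3, and the highest r with another number was -0.47, 0.44 and 0.41. Number 1 thus matched across these groups, but arrays 2 and 3 were not matched to their own number. A block in a fit of the compared groups was run for ABA and control alone. Only there did all same-numbered r exceed 0.1.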

Additional observations from a re-analysis of the deposited data

Results flagged for a closer look

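GH3.17 was set apart because its response to ABA differed between cells with and without DMTU, by the test of the interaction itself. The ABA effect was 1.49 ± 0.12 with DMTU and 0.39 ± 0.12 without it on the log2 scale (SE, n = 3 arrays a group), an interaction of 1.1 ± 0.17 (adjusted p = 0.00687, limma). All 3 ABA+DMTU arrays were above all 3 DMTU arrays, and all 3 ABA arrays were above all 3 control arrays. The interaction was called under every alternative run for it, with values of 0.94 to 1.18. Its levels in ABA+DMTU, ABA and control arrays were near the top of the scale (percentiles 99.8, 99.7 and 99.4 of all probe sets), and the part of this in the interaction was not tested.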

How the results depend on the processing

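The directions of GH3.5 and ARL held in each comparison with arrays left out in turn, with array weights and with arrays centred. They also held without both arrays numbered 1 of the ABA and control groups. With only the 2 groups compared, or with the replicate number as a block, the members' differences could not change, since each group held 1 array of every number. For these differences those settings could change only the SE. Centring arrays on their medians moved all differences by 0.15 for ABA against control and by 0.17 for ABA+DMTU against DMTU. The 180 member values under alternatives include those that could not change. Of the 180, 7 changed sign, all of ARR15, and 1, the GH3.5 interaction with array weights (1.19), moved by over the residual SD. For ARR15, DMTU against control ranged from -0.02 to 0.79 with single arrays left out and was -0.02 without both arrays numbered 1, and its interaction ranged from -0.3 to 0.54. As to the cause, arrays left out leave fewer samples, and otherwise the cause was not tested.

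Counts of called genes among the 27 list genes moved more. With array weights they were 13 for ABA, 6 for DMTU, 6 for ABA+DMTU against ABA and 5 for the interaction, and the counts over all probe sets were 12891, 8008, 7542 and 3097. With the replicate number as a block in all 12 arrays, ABA+DMTU against ABA had 4 and the interaction 2. The block in the 6 ABA and control arrays was chosen after the data were seen and gave 4 list genes and 8364 probe sets. With arrays centred, or with a trend and robust eBayes, DMTU against control had 1. With only the 2 groups compared, ABA+DMTU against ABA had 1. Without both arrays numbered 1, the counts were 4 for DMTU, 4 for ABA+DMTU against ABA and 3 for the interaction, with 1243 probe sets called. With probe sets above the median level only, which kept 4 of the list genes, they were 3 for ABA, 4 for ABA+DMTU against DMTU and 0 for ABA+DMTU against ABA, and the interaction had 308 probe sets.

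Leaving out 1 array gave 3 (without control replicate 2 or 3) to 7 list genes for ABA, 1 to 2 for DMTU (1 without control replicate 2 or 3 or DMTU replicate 2), 2 to 4 for ABA+DMTU against ABA (4 without ABA+DMTU replicate 1) and 1 to 3 for the interaction (3 without ABA replicate 1). Over all probe sets it gave 2559 (without DMTU replicate 2) to 3541 for DMTU, and 291 (without DMTU replicate 2) to 795 for the interaction, which was at most 416 without any 1 of control replicates 2 and 3, ABA replicate 3, ABA+DMTU replicates 2 and 3 and DMTU replicates 1 and 2. Of 293 values of the called list genes and ARR16 under alternatives, 250 kept their side of the threshold, 33 lost the call and 10 gained it. Among values called in the main fit, 0 reversed in sign. Sign changes of values not called there were not counted. The ARR16 interaction, for example, was -0.72 in the main fit and 0.17 without ABA replicate 1. Levels near the low end of the scale limit what could be measured for the 12 dim list genes.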
